A study of Mus musculus with 7 samples.

Results

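The genes described here are 45 nuclear receptors and coregulators, 30 receptors and 15 coregulators, taken by name and looked up in the 2 deposited lists of m6A peaks. The rule that names them uses no measured value, but the members were chosen with earlier results of these data known. Of the 45, 21 were among the 3980 gene symbols of the muscle table and 17 among the 3970 genes of the C2C12 list. All 45 had an entry in the RefSeq annotation, and 0 had to be matched through an older symbol.

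Nuclear receptors are transcription factors that bind DNA at hormone response elements, many of them in response to a steroid, a retinoid, a thyroid hormone or a lipid. Whether a bound receptor activates or represses its targets depends on coregulators: the NCOA and PGC-1 coactivators, the corepressors NCOR1 and NRIP1, and Mediator, which links the receptor to RNA polymerase. In skeletal muscle, receptors such as PPARδ and the REV-ERBs, together with the PGC-1 coactivators, are known for their control of oxidative metabolism. m6A is a methyl mark on adenosine that METTL3, the catalytic subunit of the methyltransferase complex, places in mRNA, mostly within motifs such as GGAC.

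In MeRIP-Seq, fragments of mRNA are captured with an antibody against m6A and sequenced beside the input RNA. Muscle RNA came from C57BL/6 mice at day 2 after cardiotoxin (CTX) injection. The cKO mice carried Pax7CreERT2 and METTL3 flox/flox, and the CTL mice carried Pax7CreERT2 and METTL3 wt/wt. Mice of both genotypes received tamoxifen, and each genotype gave 1 IP and 1 input library. Pax7CreERT2 is active in Pax7-expressing muscle stem cells, so that other cells of the muscle retain METTL3. The labels name the cell type as muscle stem cell but the source as muscle. The ages of these mice, and whether animals were pooled, are not given in the sources used here. The myoblast line C2C12 gave 2 IP libraries and 1 input library. The labels mark the C2C12 IP libraries as knockout and the input as normal, without naming a gene, and the libraries are therefore referred to as C2C12 only.

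Each muscle peak carries a single fold enrichment, the ratio of IP to input, and not a value per genotype or per library. None of the 5412 muscle peaks lay above the FDR threshold of 0.05 in the table's own test between the genotypes, so a gene that is missing from the table may still carry a peak that did not differ. The C2C12 list gives positions and classes of 5433 peaks and no enrichment. The depth of the libraries is unknown, no value has a replicate check, and no test was made. The tables hold no expression values, and fewer cells of a type and less RNA per cell cannot be told apart here. Of the markers of other cell types, the muscle table listed peaks in 2 of 5 macrophage and leukocyte genes (Ptprc and Itgam), 1 of 3 endothelial genes (Cdh5), 2 of 3 fibroblast genes (Pdgfra and Col1a1), and 1 of 5 myofibre genes (Ttn), beside 4 of 6 muscle stem cell and myoblast genes (Pax7, Myod1, Myog and Itga7). Among all protein-coding genes, the share listed in muscle was 16.9%. The C2C12 list held 2 of 3 fibroblast genes, 3 of 6 muscle stem cell and myoblast genes and 0 genes of the other sets. A listed peak therefore does not by itself mark a cell type. The part of other cell types in the results was not tested.

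One promoter sequence could be set beside a peak, by distance from the start alone. Among the peaks of these genes, a single C2C12 peak lay across a transcription start site (TSS), that of the coactivator gene Ncoa5. It was 210 bp long and its centre lay 34 bp upstream of the TSS (-34), which places it from -139 to 71. The RefSeq window for Ncoa5, with 250 bases before and 50 after the start, lies at chr2:165034730-165035029 on the minus strand of GRCm38.p6 and is printed 5′ to 3′ with the motif GGAC in capitals.
Ncoa5: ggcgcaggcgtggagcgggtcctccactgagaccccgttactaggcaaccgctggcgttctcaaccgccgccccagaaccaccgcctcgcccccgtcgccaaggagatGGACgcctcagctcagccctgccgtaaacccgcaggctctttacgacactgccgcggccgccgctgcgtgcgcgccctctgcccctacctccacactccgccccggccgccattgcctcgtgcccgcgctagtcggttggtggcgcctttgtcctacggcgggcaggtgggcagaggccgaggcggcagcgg
The motif was found once on the strand of the gene, beginning at -142. Whether the C2C12 list counts from the same start base is not known. If it does, the motif, apart from its last base, lay upstream of the stretch that the peak covers. Its complement on the other strand, GTCC, occurred 2 times in the window. On the strand of the gene, GGAC was held by 65.6% of the 32851 promoter windows in RefSeq, and on either strand by 87.7%. The RefSeq gene span begins 92 bp upstream of this start, so the motif lies before that span. The build of the C2C12 list is not given in the sources used here, and 507 of its 5381 matched peaks (9.42%) were centred in the GRCm38 span of their own gene, against 98.2% in muscle. Peak and window were therefore aligned by distance from the TSS alone. In muscle, 0 of the 28 member peaks that could be set against a promoter window overlapped one.

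Members were listed at a higher share than all protein-coding genes in both tables. They were chosen with earlier results of these data known, so these shares do not stand for nuclear receptors as a class. Of 18 further receptors outside the list, 2 were listed in muscle and 1 in C2C12, and of 18 further coregulators 10 in each. In muscle, 21 of 45 (46.7%) had at least 1 peak, where the share of all 21896 protein-coding genes was 16.9%. In C2C12, 17 of 45 (37.8%) had a peak, against 17.6% of protein-coding genes. A total of 13 members were listed in both tables, 8 in muscle alone, 4 in C2C12 alone and 20 in neither. The 13 shared genes were 61.9% of the members listed in muscle and 76.5% of those listed in C2C12. Among all protein-coding genes, 43.2% of the muscle genes were also listed in C2C12 and 41.4% of the C2C12 genes also in muscle. By gene span, the listed members had a median length of 47143 bp against 76792 bp for the unlisted ones. Among all protein-coding genes the order was the other way, 25229 bp for listed and 14606 bp for unlisted genes. The part of gene length, of expression or of the choice of members in these shares was not tested.

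**Figure D1:**
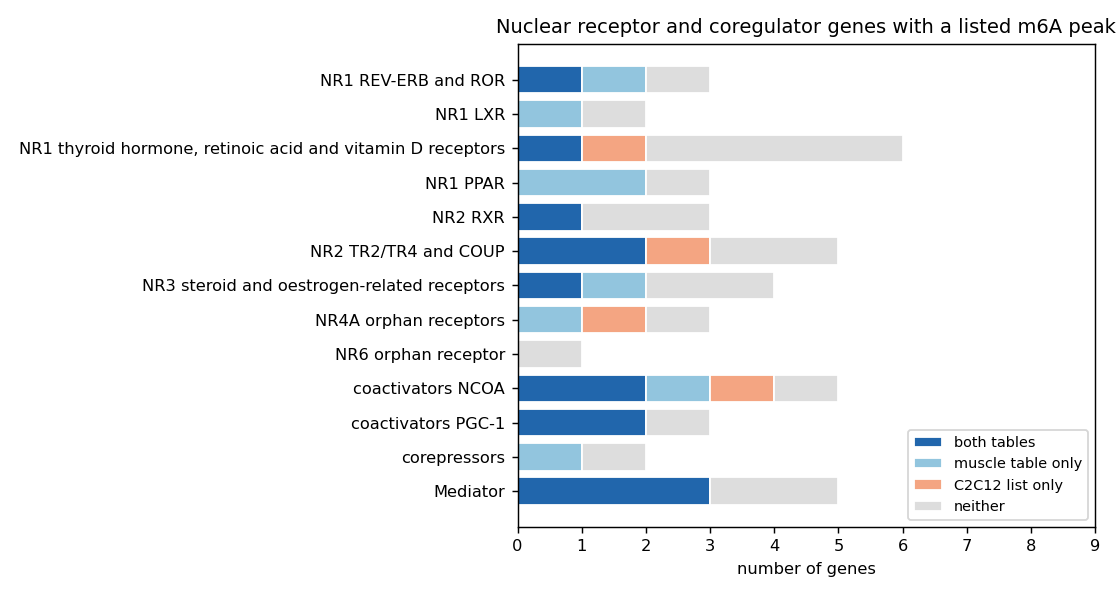
Number of genes (horizontal axis) in each receptor subfamily or coregulator class (vertical axis), split by the table in which an m6A peak was listed. Of the 45 genes, 13 were in both tables, and the Mediator and PGC-1 genes that were listed were all in both.

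Coregulators were listed at a higher share than receptors in both tables, without a test. Of the 30 receptors, 12 were listed in muscle, 9 in C2C12 and 6 in both, and 15 were in neither. Of the 15 coregulators, 9 were listed in muscle, 8 in C2C12 and 7 in both, and 5 were in neither. The strongest peak per gene, meaning that with the highest fold enrichment, had a median of 26.8 in the receptors (3.12 to 587) and 32.4 in the coregulators (9.8 to 327), and the ranges overlapped almost wholly. Counted over both kinds, the median of the strongest peak was 31.5, against 19.4 for all genes of the muscle table. Of the 21 members in muscle, 15 lay at or above that median of all genes. The quartiles of the members were 17.1 and 108, and those of all genes 6.85 and 75.9.

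The highest enrichment among the members was that of Nr2f2. It encodes COUP-TFII, an orphan receptor that represses many hormone response elements, and its 3′UTR peak (chr7:70354310-70354938, minus strand, 629 bp) had a fold enrichment of 587, rank 89 of 5412 peaks. A single GGAC site is listed in it, at position 70354521. The 3′UTR peak of Nr2f1, which encodes the related COUP-TFI (chr13:78189332-78189812, minus strand, 481 bp), had a fold enrichment of 108 and 6 GGAC sites within 282 bp, the closest pair 17 bp apart. Of these peaks, the more enriched one held fewer sites, 1.59 per 1000 bp against 12.5. The COUP-TF relative Nr2f6 was listed in C2C12 alone, with a 5′UTR peak of 504 bp centred 595 bp after the TSS. The testicular receptors of the same subfamily, Nr2c1 and Nr2c2, were in neither table.

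Of the retinoid receptors, 3 of 6 were listed. Rxra encodes RXRα, the common partner with which many receptors form heterodimers. Its 3′UTR peak in muscle (chr2:27761823-27762957, plus strand, 1135 bp) had a fold enrichment of 227 and held 5 GGAC sites. In C2C12, 2 further 3′UTR peaks of Rxra were listed, centred 83344 and 85509 bp after the TSS. Its paralogues Rxrb and Rxrg were in neither table. Among the retinoic acid receptors, Rarg had an exon peak of 52.3 in muscle with 4 sites in 360 bp (chr15:102235778-102236137, minus strand) and a 3′UTR peak of 459 bp in C2C12. Rara was listed in C2C12 alone, but with 3 peaks that together covered 1204 bp, the most of any member and rank 176 of 3970 genes. These lay in the 5′UTR (12750 bp after the TSS), an intron (22942 bp) and the CDS (35940 bp), the last of them 622 bp long. Rarb, the thyroid hormone receptors Thra and Thrb and the vitamin D receptor Vdr were in neither table.

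Among the receptors of clock and lipid metabolism, the values spread widely. Nr1d2 encodes REV-ERBβ, a haem-binding repressor of the circadian clock, and its CDS peak in muscle (chr14:18214847-18215445, minus strand, 599 bp) had a fold enrichment of 53.8 with 2 GGAC sites. It also had a CDS peak of 381 bp in C2C12. The peak of its paralogue Nr1d1, which spanned 2 exon blocks of the CDS, reached 13.7 and was listed in muscle alone. Ppard encodes PPARδ, a fatty acid receptor of oxidative muscle fibres, and had a 3′UTR peak of 31.5 with 2 sites (chr17:28300155-28300812, plus strand, 658 bp) and a CDS peak of 7.8. Pparg, the receptor that drives fat cell formation, had a single CDS peak of 3.33. Nr1h2, which encodes the oxysterol receptor LXRβ, had the lowest strongest peak of all members, 3.12, although 3 sites lay in its 240 bp (chr7:44551292-44551531, minus strand). None of these PPAR and LXR genes was listed in C2C12, and Ppara, Nr1h3 and Rora were in neither table.

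Of the steroid receptors, Nr3c1 and Esr1 were listed. Nr3c1 encodes the glucocorticoid receptor and had 2 peaks in the 3′UTR in muscle, with fold enrichments of 17.1 and 2.64 and 1 GGAC site in each. In C2C12 its 2 listed peaks lay in the CDS, 356 and 858 bp after the TSS. Esr1, which encodes oestrogen receptor α, had a 3′UTR peak of 22 in muscle and was not listed in C2C12. That peak (chr10:5001570-5002049, plus strand, 480 bp) was the most enriched member peak without a GGAC site. The NR4A genes are immediate-early orphan receptors. Nr4a3 had a CDS peak of 3.5 in muscle with 0 sites (chr4:48056540-48056720, plus strand, 181 bp), Nr4a2 had a CDS peak of 258 bp in C2C12, and Nr4a1 was in neither table. The mineralocorticoid receptor Nr3c2, the oestrogen-related receptor Esrra and Nr6a1 were in neither table.

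Among the coactivators, Ncoa6 and Pprc1 had the highest enrichment, and both in the CDS. Ncoa6 encodes a coactivator of receptors that belongs to histone methyltransferase complexes. Its 3 muscle peaks were all in the CDS, at 155, 8.15 and 2.67, and its 3 C2C12 peaks, centred 25118, 25426 and 34974 bp after the TSS, were in the CDS as well. The strongest (chr2:155421060-155421660, minus strand, 601 bp) held 1 site and the peak of 8.15 held 3. Pprc1, a PGC-1-related coactivator, had 1 peak of 2277 bp over 2 exon blocks (chr19:46062500-46064884, plus strand) with a fold enrichment of 149 and 7 sites, the longest of the member peaks. In C2C12 its CDS peaks were centred 6265 and 12809 bp after the TSS. Ppargc1b, which encodes PGC-1β, had a CDS peak of 49.2 with 5 sites (chr18:61310449-61311348, minus strand, 900 bp) and a CDS peak of 363 bp in C2C12, whereas Ppargc1a, which encodes PGC-1α, was in neither table. The steroid receptor coactivator genes differed in where they were listed. Ncoa2 was listed in both tables (24.6 in the 3′UTR in muscle, CDS in C2C12), Ncoa3 in muscle alone with 3 peaks between 4.11 and 9.8, and Ncoa1 in neither. Ncoa5 was listed in C2C12 alone, and beside the peak at the TSS it had a CDS peak 21726 bp and a 3′UTR peak 33648 bp after it.

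In muscle, the listed corepressor and Mediator genes other than Med1 had their strongest peak in the 3′UTR. Ncor1 encodes the corepressor that recruits histone deacetylase to unliganded receptors, and its 3′UTR peak of 569 bp (chr11:62317414-62317982, minus strand) had a fold enrichment of 32.4. This stretch also lies within the span of the gene Ttc19, and whether strand was used in calling peaks is not stated. The other corepressor, Nrip1, was in neither table. Med13l encodes a subunit of the Mediator kinase module, and its 3′UTR peak of 1409 bp (chr5:118762712-118764120, plus strand) had a fold enrichment of 327 and 9 GGAC sites, the most of any member peak. Its other peaks, at 3.96 and 2.78, held 0 sites. Med13, the paralogue of Med13l, had 3′UTR peaks of 21.3 and 3.1, both within the span of the noncoding RNA gene Brip1os. Med1, the subunit through which many receptors contact Mediator, had a CDS peak of 31.1 over 1440 bp and an exon peak of 7.53. All 3 genes were also listed in C2C12, with an intron peak for Med1 and CDS peaks for Med13 and Med13l. Med12 and Med14 were in neither table.

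**Figure D2:**
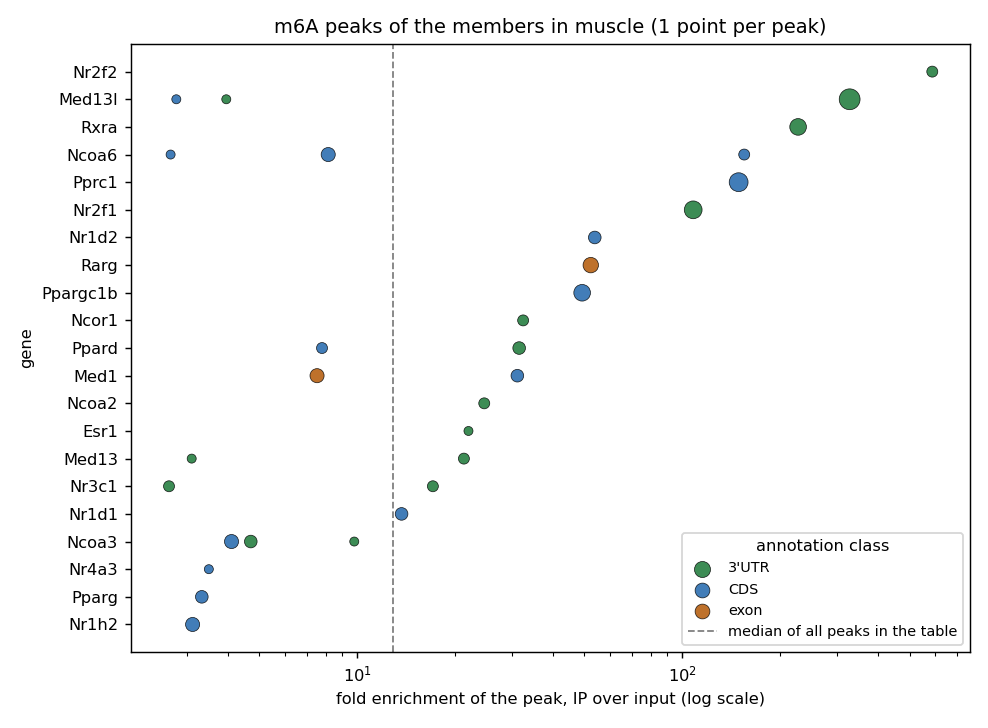
Fold enrichment of each of the 31 muscle peaks (horizontal axis, log scale) for the 21 genes listed (vertical axis), coloured by annotation class, with larger points for peaks that hold more GGAC sites and a dashed line at the median of all 5412 peaks, 12.9. Nr2f2 is highest at 587, and Nr3c1 lowest at 2.64 in the weaker of its peaks.

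Within a gene, the peaks were far from equal. In muscle, 7 of 21 members (33.3%) had more than 1 peak, against 25% of all genes in the table. The ratio of the strongest to the weakest peak was 118 in Med13l and 58.1 in Ncoa6, and between 2.38 and 6.87 in Med13, Nr3c1, Med1, Ppard and Ncoa3. The strongest peak was also the longest in 5 of these 7 genes, the exceptions being Ncoa3 and Nr3c1. This count was not made for all genes, and over all peaks of the table longer peaks also had higher enrichment (Spearman's rho 0.76). Because weak peaks of the same genes enter the count, the median over all 31 peaks was 17.1, against 12.9 for all peaks of the table. At or above 100 were 6 member peaks (19.4%, against 15.9% of all peaks) and below 5 were 10 (32.3%, against 24.9%).

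By class, the share of member peaks was close to that of the table in the 3′UTR, higher in the CDS and lower in the other classes. In the 3′UTR lay 15 of 31 peaks (48.4%, against 48.0% of all peaks), in the CDS 14 (45.2%, against 31.9%), in the class called exon 2 (6.45%, against 14.9%) and in the 5′UTR 0 (against 5.14%). By the medians over peaks, the order of enrichment between the classes differed in the members, but this depended on which peaks were counted. Their 3′UTR peaks had a median of 22 and their CDS peaks of 7.98, where all peaks of the table had 9.94 in the 3′UTR and 26.7 in the CDS. Taking the strongest peak of each class per gene, the 3′UTR median was 31.5 over 11 members against 12.4 for all genes, and the CDS median was 10.8 over 12 members against 38.1. Both CDS medians include weaker peaks of Ppard (7.8), Ncoa3 (4.11) and Med13l (2.78), whose strongest peaks lay in the 3′UTR. Among the genes whose strongest peak lay in the CDS, the middle value was 31.1 in Med1, close to the 31.5 of the 3′UTR. These genes ran from 3.12 in Nr1h2 to 155 in Ncoa6. The CDS values of the members ran from 2.78 in Med13l to 155 in Ncoa6 and overlapped the 3′UTR values, which ran from 9.8 in Ncoa3 to 587 in Nr2f2. Lengths moved with these values: the median 3′UTR peak was 481 bp in the members and 301 bp in the table, and the median CDS peak 450 bp and 600 bp. The part of length in the enrichment was not tested.

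GGAC sites were listed in 24 of the 31 member peaks (77.4%, against 70.6% of all peaks), 68 sites in all. Per length they were somewhat fewer than in the table, 3.76 per 1000 bp against 4.63. This held in the CDS (3.58 against 5.04) and in the 3′UTR (3.56 against 4.12) but not in the 2 peaks of the exon class (7.07 against 4.52). The 24 peaks with a site had a median fold enrichment of 27.9 and a median length of 585 bp, and the 7 without one had 3.5 and 181 bp. The peaks without a site were those of Esr1 and Nr4a3, the weaker pair of Med13l, and 1 each of Ncoa3, Ncoa6 and Med13. In the whole table the same medians were 21.9 and 509 bp with a site and 5.89 and 211 bp without. Over the 31 peaks, Spearman's rho with fold enrichment was 0.73 for length and 0.49 for the number of sites, against 0.76 and 0.59 over all peaks. These are descriptions over peaks that share libraries, and several peaks share a gene. In the central 50% of the length of peaks with a single exon block lay 32 of 59 sites (54.2%, against 54.8% in the table).

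**Figure D3:**
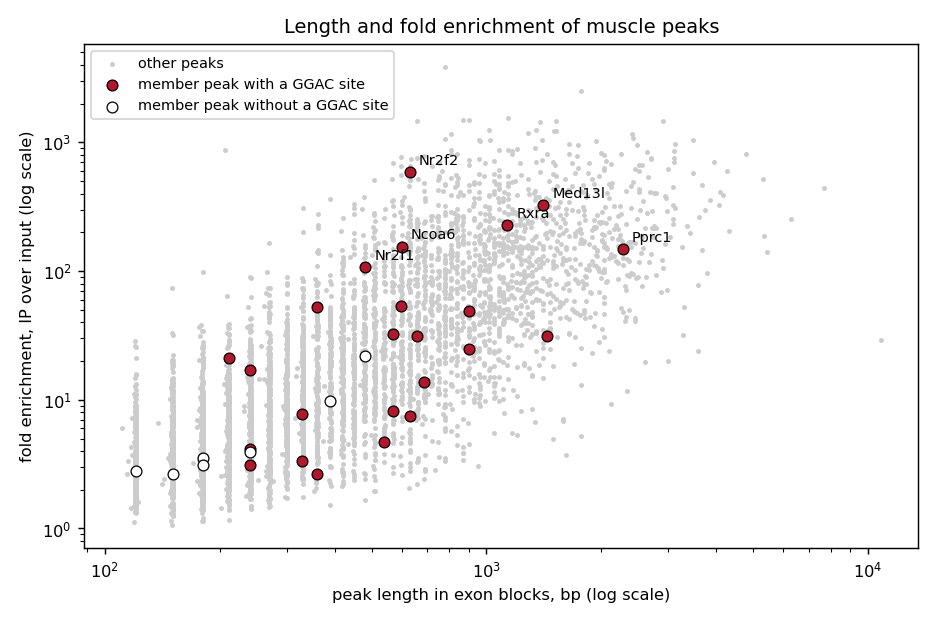
Length of each muscle peak (horizontal axis, log scale) and its fold enrichment (vertical axis, log scale), with all other peaks in grey and the 31 member peaks filled red where a GGAC site is listed and white where none is. Longer peaks had higher enrichment (Spearman's rho 0.73 over member peaks), and the 7 peaks without a site reached at most 22.

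Members that were also listed in C2C12 had higher enrichment in muscle. The strongest peak had a median of 53.8 in the 13 genes listed in both tables (17.1 in Nr3c1 to 587 in Nr2f2) and of 11.8 in the 8 genes listed in muscle alone (3.12 in Nr1h2 to 32.4 in Ncor1). The 2 sets overlapped between 17.1 and 32.4. The same order was seen over all protein-coding genes of the muscle table, 39.7 against 13.3. Of the 13 shared genes, 7 (53.8%) had a peak of the same class in both, against 61.8% of all 1601 shared genes. These were Ncoa6, Pprc1, Ppargc1b, Nr1d2 and Med13l in the CDS and Rxra and Nr2f1 in the 3′UTR. In Nr3c1, Ncoa2 and Med13 the muscle peaks lay in the 3′UTR and the C2C12 peaks in the CDS. Nr2f2 had a 3′UTR peak in muscle and an intron peak in C2C12. The muscle table may lack peaks that did not differ between the genotypes. A difference in listed class therefore does not show that the sites differ between muscle and C2C12.

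**Figure D4:**
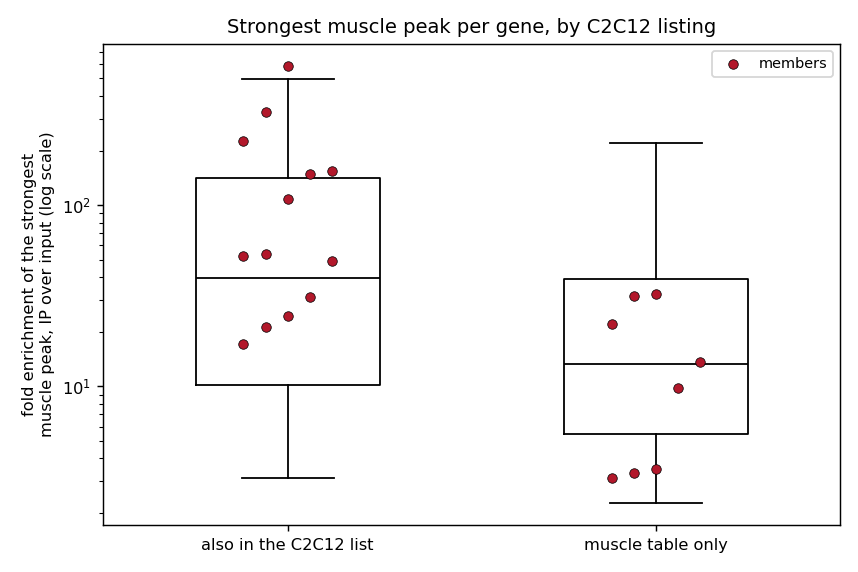
Fold enrichment of the strongest muscle peak per gene (vertical axis, log scale) for genes that were or were not in the C2C12 list. Boxes span the quartiles of all protein-coding genes of the muscle table with the median as a line and whiskers at the 5th and 95th percentiles, and red points are the members, 13 at 17.1 to 587 and 8 at 3.12 to 32.4.

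In C2C12, the 26 member peaks lay mainly in the CDS, 15 of 26 (57.7%, against 52.6% of all peaks). A further 5 lay in the 3′UTR (19.2%, against 25.9%), 3 in introns, 2 in the 5′UTR and 1 upstream. Of the 2 kinds of gene, coregulators had most of their peaks in the CDS: 10 of 13 coregulator peaks were in the CDS and 1 in the 3′UTR, whereas receptors had 5 in the CDS and 4 in the 3′UTR. The median peak length was 277 bp (200 to 622), against 286 bp in the list. The median distance from the TSS was 23448 bp, against 13712 bp. Within 1000 bp of the TSS lay 4 of the 26 peaks (15.4%, against 11.2%), those of Nr3c1, Nr2f6 and Ncoa5. The longest distance was that of the 588 bp peak of Ncoa2, 199540 bp. Listed with more than 1 peak were 6 of 17 members (35.3%, against 25.8%): Rara, Ncoa5, Ncoa6, Nr3c1, Pprc1 and Rxra. The length covered by peaks had a median of 459 bp per member, against 342 bp per gene of the list, with Rara at 1204 bp, Ncoa5 at 740 bp and Nr3c1 at 712 bp at the top and Med13 at 203 bp at the bottom.

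**Figure D5:**
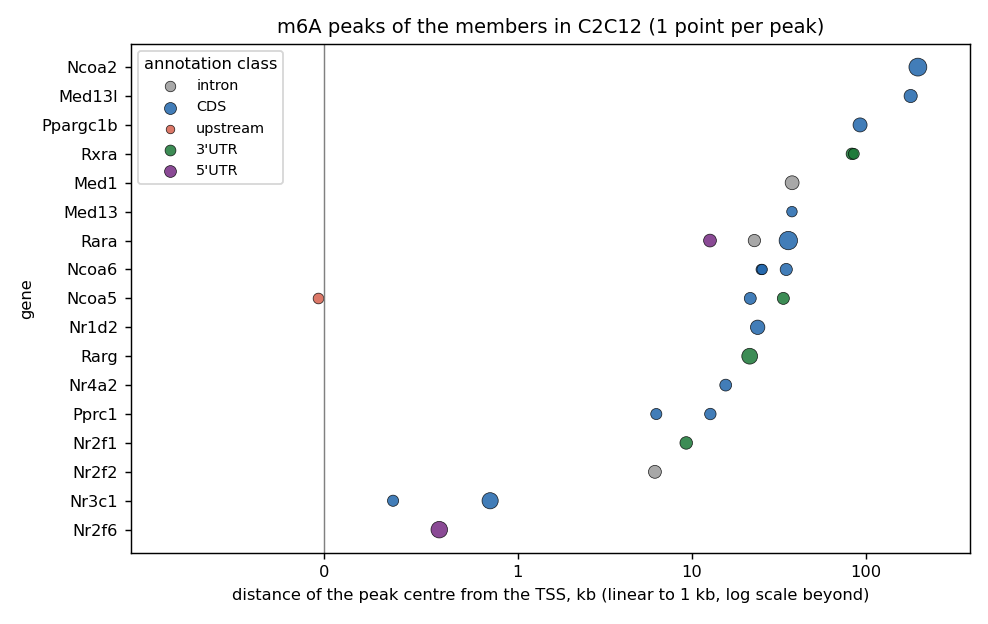
Distance of each of the 26 C2C12 peaks from the TSS in kb (horizontal axis, linear to 1 kb and log scale beyond) for the 17 genes listed (vertical axis), coloured by annotation class, with larger points for longer peaks. Of the 26 peaks, that of Ncoa5 alone is centred before the TSS, and that of Ncoa2, at 199540 bp, is farthest from it.

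Genes around the same pathway were read against the shares of all protein-coding genes, 16.9% in muscle and 17.6% in C2C12. Of 18 further nuclear receptors, 2 were listed in muscle (11.1%), among them Esrrg at 18.7, and 1 in C2C12 (5.56%), Nr1i3. Of 18 further coregulators, 10 were listed in muscle and 10 in C2C12 (55.6% each), 6 of them in both. Their strongest peaks had a median of 88.9, against 19.4 for all genes of the muscle table. The acetyltransferase genes Crebbp and Ep300 reached 604 and 308. Of 28 further Mediator genes, 10 were listed in muscle (35.7%), with a median of 22.7 and Med12l highest at 650, and 8 in C2C12 (28.6%). Of 18 genes that make or break down ligands, 3 were listed in muscle (16.7%, near the share of all genes) and 0 in C2C12: the retinoid genes Cyp26b1 at 13.5, Aldh1a2 at 5.6 and Dhrs3 at 2.57. Of 25 target genes of these receptors, 8 were listed in muscle (32.0%) and 6 in C2C12 (24.0%). The highest in muscle were the clock gene Per1 at 27.4, Tsc22d3, a glucocorticoid target, at 20.9 and Abca1, an LXR target, at 18.3. The median strongest muscle peak was 13.95 in the target genes, 12.6 in the further receptors and 5.6 in the ligand genes. These medians lay below the 19.4 of all genes. Of these 5 lists, the coregulators had the highest share in each table, and no test of the differences was made.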

How the data were processed

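MeRIP-Seq of day 2 muscle (cKO and CTL, 1 IP and 1 input library each) and of C2C12 (2 IP libraries and 1 input library) was used as deposited. The labels' processing notes name TopHat, MACS2 and mm10 without their roles, and the column names of the muscle table are those of exomePeak. The authors deposited 1 fold enrichment, a ratio of IP over input, and 1 peak p-value for each muscle peak, with its exon blocks, class and GGAC sites. The p-value is listed as 0 for 929 peaks, 5 of them in members. The log2 fold, p and FDR of the test between genotypes were not used, beyond the check that 0 peaks exceed its FDR threshold. Columns of single-sample values left out numbered 0.

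Python 3.11.15 was used with numpy 2.4.6, pandas 2.3.3, matplotlib 3.10.9 (figures) and scipy 1.17.1, and the summaries were tested on simulated data. Genes were matched to the RefSeq annotation and promoter windows of GRCm38.p6 by symbol, or in C2C12 by transcript. Of 161 listed GGAC positions inside promoter windows, 144 (89.4%) read GGAC there. Peak lengths are summed over exon blocks in muscle and counted from first to last base in C2C12. Of the 45 members, 40 have a promoter window. Members, role groups and lists were chosen with earlier results of these data known. Every member was named. Positions were given for the 10 members with the highest enrichment and the strongest of each role group, and C2C12 peaks for the 8 with the greatest covered length. Genes of the further lists were named after their values were seen. Some genes of these lists are not reported here. The alternatives changed the choice of peak, the filter on enrichment, the classes kept, the length used and the matching of symbols.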

Additional observations from a re-analysis of the deposited data

How the results depend on the processing

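Of 19 alternative settings, 16 left the value near that reported, and 3 moved it. For counts and medians, near meant within a factor of 1.5. For shares, near meant inside the 95% Wilson interval of the reported share, which treats peaks as independent. For the 3′UTR share of 48.4% this wide interval ran from 32.0% to 65.2%. The 58.8% among peaks at or above the median enrichment therefore counted as near. Some settings could not move the value. Matching by the listed symbol alone changed nothing because 0 members were matched through an older symbol. A minimum fold enrichment of 2 kept every member because the lowest strongest peak was 3.12. The median fold enrichment of the members in muscle fell from 31.5 to 17.1 when all 31 peaks were taken in place of the strongest of each gene. The share of peaks with a GGAC site rose from 77.4% to 94.1% among peaks at or above the median enrichment of the table. In C2C12, the number of peaks in place of the covered length of 459 bp gave a median of 1 peak per member. That setting changed the unit, so the 2 values cannot be compared in size. The members listed in muscle numbered 17 to 21, those in C2C12 15 to 17 and those in both 11 to 13 under the settings tried. No paired analysis was possible because the tables hold no values per library. With 1 set of values per muscle peak and none in C2C12, depth and the spread between samples are unknown.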
